A study of Mus musculus with 23 samples.

Results

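The subunits of the GABA, glycine and glutamate receptor channel families were followed in hypothalamic RNA of db/db mice given celastrol or its vehicle. The genes were taken by symbol: the subunits of GABA-A receptors (Gabr), glycine receptors (Glra and Glrb), and the AMPA (Gria), NMDA (Grin), kainate (Grik) and delta (Grid) classes of glutamate receptor. A probe set of their own was found for 37 subunits among 18704 genes, of which 16 belonged to GABA-A receptors, 5 to glycine receptors and 16 to glutamate receptors. RefSeq lists 42 protein-coding mouse genes of these names, and the other 5 were not analysed here. Expression is given on the log2 scale, 1 value per probe set and array, where a difference of 1 is a doubling of signal; for the 1 subunit with several probe sets, Gabrb2, the one with the highest mean was used.

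All animals were male db/db mice, 8 weeks old per the labels and kept on normal chow for 2 weeks. db/db mice carry a mutated leptin receptor gene, are obese and diabetic, and served here as treated animals and as controls alike, so no comparison with lean animals was made. Celastrol, a triterpenoid from the thunder god vine that is known to reduce feeding in obese mice, was injected into the peritoneum, at 250 µg/kg for 6 h; the labels state no dose for 1 day and 4 days. Controls received DMSO, 25 µl per day, for the same times. The 6 groups held 4 arrays each, except for 3 arrays of celastrol at 6 h, each array being described as a biological replicate; nothing more is said of how they were separated.

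GABA-A and glycine receptors are pentameric rings of subunits around a chloride pore and inhibit most mature neurons, whereas ionotropic glutamate receptors are tetrameric assemblies that pass cations and excite them. Which subunits a neuron makes sets where its receptors sit and how fast they open and close. In the hypothalamus, neurons that drive hunger release GABA onto their targets and receive glutamate input that is known to depend on NMDA receptors. The comparison of celastrol with vehicle bears on whether levels of these subunit transcripts changed with the drug in mice that lack the long leptin receptor.

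The tissue carried the markers of hypothalamus, with a mean log2 value of 20 hypothalamic genes between 9.96 and 10.20 in every array. Markers of thalamus, which adjoins the hypothalamus, varied more, with means of 14 genes from 9.41 to 9.99, and those of pituitary varied most, with means of 9 genes from 7.18 to 9.11. Array medians lay between 8.57 and 8.64. Of the 37 subunits, 33 had a mean above 7.17, the level under which 95% of 1219 odorant, vomeronasal and taste receptor genes lay. The 4 that did not, Gabra6, Gabrp, Gabrr3 and Glra4, with means of 5.75, 6.42, 6.21 and 7.16, are named without weight on their differences. Grin3b, Gabrr1 and Gabrd, at 7.25, 7.39 and 7.58, lay just above this level. Replicate 3 of vehicle at 6 h stood apart, being the lowest of its group for 21 of 37 subunits and for 38.3% of all genes, so results that rest on it are also given without it. The RNA came from whole tissue, where fewer cells of a type and less RNA per cell cannot be told apart.

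No difference between celastrol and vehicle passed the test for any of the 37 subunits. No adjusted p of limma, a linear model fitted across all genes with Benjamini-Hochberg adjustment over 18704 genes, was under 0.05 at 6 h (background over all genes 0%), at 1 day (0.016%, 3 genes) or at 4 days (0%). At an unadjusted p under 0.05 there were 4 subunits at 6 h (all genes 14.8%), of which 3 were higher (8.56%) and 1 lower (6.22%). At 1 day there were 6 (12.5%), of which 1 was higher (8.31%) and 5 lower (4.19%), and at 4 days 2 (7.29%), both higher (2.73%; lower 4.57%). The mean of the 3 differences passed for 0 subunits (all genes 0%), with 7 at an unadjusted p under 0.05 (13.5%). The test for a drug effect that differed between times passed for 0 of 37 subunits (all genes 0.0588%), with 2, Gabra2 and Grin3b, at an unadjusted p under 0.05 (13%).

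The number of arrays set how small a change could be seen. Around the drug difference of a typical subunit, the 95% confidence interval extended 0.135 (log2, median of 37) in both directions at 6 h, and 0.125 at 1 and 4 days. Every interval of the 37 subunits lay within 0.5 of zero at all 3 times, and within 0.25 for 28, 32 and 30 subunits. The outermost bounds were -0.39 and 0.37 at 6 h, -0.41 and 0.34 at 1 day, and -0.39 and 0.29 at 4 days, which correspond to changes of at most 1.31-, 1.33- and 1.31-fold. Among the 33 subunits above background, the SD between arrays of a group ran from 0.0418 for Gria2 to 0.157 for Gabrd, and 21 of them varied less than the median gene.

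**Figure D1:**
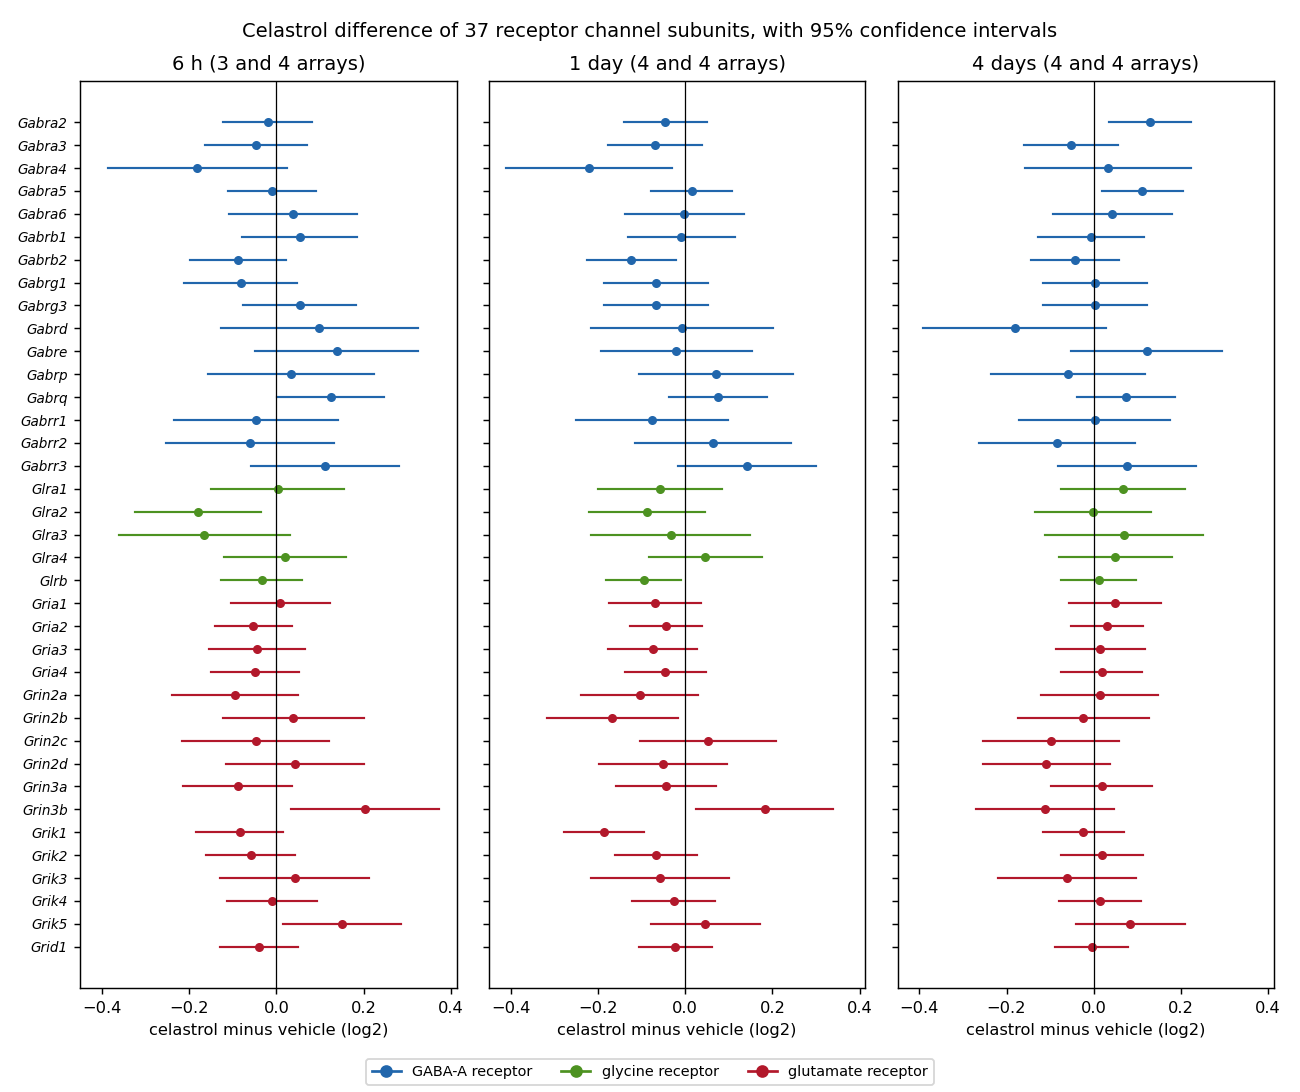
Difference between celastrol and vehicle (log2, horizontal axis) for each of the 37 subunits at 6 h, 1 day and 4 days, coloured by receptor family, with points for the estimates and lines for the 95% confidence intervals of limma (3 celastrol and 4 vehicle arrays at 6 h, 4 and 4 later). All intervals lie between -0.41 and 0.37, and at 1 day 28 of the 37 points lie left of zero.

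At 1 day most subunits had lower values under celastrol, by small amounts. Of the 37, 28 were lower (all genes 45.9%) and 9 higher, with a median difference of -0.0451 against 0.00857 over all genes. Among those above background, 27 of 33 subunits were lower (81.8%), against 53.3% of 13844 genes above background, whose median was -0.00653. The lower ones were 11 of 16 GABA-A, 4 of 5 glycine and 13 of 16 glutamate subunits, including all 4 AMPA subunits, whose differences lay between -0.07 and -0.04. Leaving out each array in turn gave 26 to 28 lower subunits. The mean over the 37 subunits in vehicle mice was 10.2384 ± 0.0578, 10.2591 ± 0.0137 and 10.2243 ± 0.0296 at 6 h, 1 day and 4 days (SD between arrays). In celastrol mice it was 10.2293 ± 0.0173, 10.2256 ± 0.0121 and 10.2295 ± 0.0186. Vehicle at 1 day thus had the highest group mean, and the same arrays enter the vehicle changes over time. Array means ran from 10.1542 to 10.2855 in vehicle at 6 h and from 10.2395 to 10.2699 in vehicle at 1 day. Replicate 3 of vehicle at 6 h was the lowest of its group for 21 of 37 subunits. The order of these groups may rest on that array, and was not tested without it. In 8 subunits all 4 celastrol arrays lay below all 4 vehicle arrays (all genes 4.56%), namely Gabra4, Gabrb2, Gabrg3, Glrb, Gria1, Gria3, Grik1 and Grin2b, and in 1, Grin3b, all lay above (6.44%). Hypothalamus markers had a median difference of 0.0996 at the same time (16 of 20 higher), neuron markers of -0.0227 (9 of 12 lower), oligodendrocyte markers of -0.0765 (10 of 11 lower), and thalamus markers of -0.106 (11 of 14 lower); their part in the count was not tested.

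Grik1, the kainate receptor subunit GluK1, had the smallest p of the family. Its values at 1 day were 9.31, 9.28, 9.35 and 9.28 with celastrol and 9.43, 9.51, 9.55 and 9.48 with vehicle, with no overlap between the groups. The difference was -0.19 ± 0.0446 SE (limma, adjusted p = 0.138), from means of 9.31 ± 0.0343 and 9.49 ± 0.0506 (SD, n = 4 each). With arrays weighted by their quality the difference was -0.19 and passed (limma, adjusted p = 0.0146), a fit in which 406 of all genes passed. At 6 h Grik1 measured 9.47, 9.30 and 9.44 with celastrol and 9.52, 9.53, 9.42 and 9.48 with vehicle, and at 4 days 9.42, 9.38, 9.33 and 9.33 and 9.36, 9.36, 9.47 and 9.36. The groups overlapped at both of these times, with differences of -0.08 and -0.02. Its mean difference over the 3 times was -0.10 ± 0.0265 SE (limma, adjusted p = 0.176), the smallest p for this measure among the subunits.

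Of the other kainate subunits, Grik5 encodes GluK5, which forms channels only together with GluK1 to GluK3. At 6 h it measured 11.18, 11.22 and 11.23 with celastrol and 11.17, 11.18, 10.79 and 11.10 with vehicle. Replicate 3 of the vehicle group, at 10.79, lay far under the rest; the difference of 0.15 ± 0.0652 SE (limma, adjusted p = 0.295) was 0.06 without it. The values at 1 day, 11.26, 11.28, 11.17 and 11.26 against 11.24, 11.16, 11.19 and 11.20, and at 4 days, 11.37, 11.32, 11.36 and 11.40 against 11.28, 11.26, 11.23 and 11.34, overlapped between the groups. Grik2, which encodes GluK2, measured 11.43, 11.50 and 11.47 with celastrol and 11.55, 11.55, 11.49 and 11.52 with vehicle at 6 h, 11.57, 11.61, 11.49 and 11.49 and 11.57, 11.59, 11.65 and 11.62 at 1 day, and 11.53, 11.58, 11.64 and 11.63 and 11.67, 11.51, 11.49 and 11.64 at 4 days. These groups overlapped at 1 and 4 days, while at 6 h the highest celastrol value lay just above the lowest vehicle value. Grik3 and Grik4 differed by between -0.06 and 0.04 at the 3 times.

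Among the NMDA receptor subunits, Grin2b, which encodes GluN2B, was lower at 1 day in all celastrol arrays. It measured 11.10, 11.04, 11.00 and 11.00 with celastrol and 11.15, 11.28, 11.21 and 11.18 with vehicle, a difference of -0.17 ± 0.0726 SE (limma, adjusted p = 0.355). At 6 h the values were 11.06, 11.16 and 11.16 against 11.16, 11.20, 10.77 and 11.22, and at 4 days 11.16, 11.18, 11.12 and 11.15 against 11.18, 11.02, 11.25 and 11.25, with overlap at both times. The vehicle value of 10.77 at 6 h again belonged to replicate 3; the difference at 6 h was 0.04 with it and -0.07 without it. Grin3b, which encodes GluN3B, a subunit of NMDA receptors that bind glycine, went the other way at the first times. It measured 7.37, 7.49 and 7.20 with celastrol and 6.95, 7.24, 7.22 and 7.20 with vehicle at 6 h, and 7.27, 7.41, 7.34 and 7.49 and 7.22, 7.17, 7.20 and 7.20 at 1 day. The differences were 0.20 ± 0.0823 SE (limma, adjusted p = 0.271) and 0.18 ± 0.0762 SE (adjusted p = 0.338), and at 4 days, with 7.15, 6.96, 7.21 and 7.28 against 7.38, 7.26, 7.30 and 7.11, -0.11. At 1 day only did its groups not overlap, and its signal lay close to the background level throughout. The other 4 measured NMDA subunits, Grin2a, Grin2c, Grin2d and Grin3a, differed by between -0.11 and 0.05.

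The AMPA subunits carry most fast excitation, and Gria2, which encodes GluA2, makes the channels impermeable to calcium. Gria1 measured 12.45, 12.55 and 12.52 with celastrol and 12.57, 12.58, 12.29 and 12.55 with vehicle at 6 h, 12.54, 12.47, 12.51 and 12.51 and 12.57, 12.55, 12.60 and 12.59 at 1 day, and 12.56, 12.53, 12.58 and 12.54 and 12.56, 12.47, 12.51 and 12.49 at 4 days. Its 1-day groups did not overlap, though by a narrow margin, and the differences were 0.01, -0.07 and 0.05 (limma, adjusted p = 0.949, 0.607 and 0.907). The difference at 6 h turned to -0.06 without the vehicle value of 12.29, of replicate 3. Gria2 measured 12.01, 11.94 and 12.03 with celastrol and 12.05, 12.05, 12.02 and 12.06 with vehicle at 6 h, 12.09, 12.04, 12.02 and 12.14 and 12.13, 12.09, 12.17 and 12.09 at 1 day, and 12.01, 12.004, 12.02 and 11.93 and 12.02, 11.91, 11.95 and 11.96 at 4 days. These overlapped at each time, with differences of -0.05, -0.04 and 0.03. Gria3 (-0.05, -0.07 and 0.02) and Gria4 (-0.05, -0.05 and 0.02) had the same signs as Gria2.

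Of the GABA-A receptor subunits, Gabrb2, which encodes a beta subunit of the common synaptic receptor, was lower with celastrol at all 3 times. At 1 day it measured 11.85, 11.86, 11.87 and 11.85 with celastrol and 11.97, 11.98, 11.94 and 12.04 with vehicle, a difference of -0.12 ± 0.049 SE (limma, adjusted p = 0.311) without overlap. At 6 h the values were 11.86, 11.84 and 11.93 against 11.97, 11.85, 11.96 and 12.09 and at 4 days 11.64, 11.80, 11.75 and 11.63 against 11.72, 11.71, 11.73 and 11.83, and there the groups overlapped. Its mean difference over the times was -0.09 ± 0.0291 SE (adjusted p = 0.244). At 1 day the 3 probe sets of Gabrb2 gave -0.045, -0.12 and -0.14 in a fit over all probe sets. None of them passed (limma, adjusted p = 0.7, 0.316 and 0.334). The other subunits lower at all 3 times were Gabra3, Glra2, Grid1 and Grik1, and those higher at all 3 were Gabrq, Gabrr3, Glra4 and Grik5; the other 28 were of mixed sign. Without replicate 3 of vehicle at 6 h, 9 subunits were lower at all 3 times, with Gabrb1, Grik3, Grin2b and Grin2d added to the 5, and the 4 higher ones were the same. Gabrq, which encodes the theta subunit, had a mean difference of 0.09 ± 0.0323 SE (limma, adjusted p = 0.255).

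Gabra4 encodes the alpha-4 subunit, which joins delta in receptors outside synapses, and had the largest difference at 1 day. It measured 10.38, 10.50, 10.48 and 10.45 with celastrol and 10.54, 10.85, 10.62 and 10.67 with vehicle, a difference of -0.22 ± 0.0918 SE (limma, adjusted p = 0.337). The groups did not overlap, but the vehicle values spread widely, and without replicate 2 of vehicle the difference was -0.16. At 6 h it measured 10.47, 10.65 and 10.58 against 10.72, 10.56, 10.77 and 10.95 (-0.18), and at 4 days 10.51, 10.62, 10.39 and 10.57 against 10.30, 10.32, 10.57 and 10.77 (0.03), with overlap. Gabrd, which encodes the delta subunit, was among the 3 subunits of smallest p at 4 days, where it measured 7.40, 7.40, 7.74 and 7.39 with celastrol and 7.46, 7.52, 7.78 and 7.89 with vehicle. The difference of -0.18 ± 0.101 SE (limma, adjusted p = 0.745) was -0.11 without replicate 4 of vehicle and -0.27 without replicate 3 of celastrol. Its groups overlapped at 6 h, with 7.75, 7.99 and 7.63 against 7.73, 7.64, 7.52 and 7.87, and at 1 day, with 7.34, 7.44, 7.44 and 7.57 against 7.39, 7.63, 7.43 and 7.37.

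At 4 days the signs were more even, with 23 subunits higher (all genes 49.7%) and 14 lower, and a median of 0.0138 against -0.000534 over all genes. Above background it was 20 of 33 (60.6%), against 54% of genes. Without replicate 2 of vehicle at 4 days, 12 were higher and 25 lower. The celastrol arrays of Gabre, the epsilon subunit, lay wholly above the vehicle arrays, as in 1 of 37 subunits (all genes 1.87%), against 0 wholly below (1.63%). The smallest p belonged to Gabra2, the alpha-2 subunit, which measured 10.87, 10.91, 10.83 and 10.88 with celastrol and 10.83, 10.63, 10.77 and 10.73 with vehicle, a difference of 0.13 ± 0.0456 SE (limma, adjusted p = 0.474). Gabra5, the alpha-5 subunit, measured 11.95, 11.98, 12.06 and 11.85 and 11.87, 11.81, 11.90 and 11.80, a difference of 0.11 ± 0.045 SE (adjusted p = 0.578). In both, all but 1 of the celastrol arrays lay above all vehicle arrays. From 1 to 4 days the vehicle means went from 10.87 to 10.74 in Gabra2 and from 11.97 to 11.85 in Gabra5. The celastrol means went from 10.82 to 10.87 and from 11.98 to 11.96. At the earlier times Gabra2 measured 10.70, 10.79 and 10.88 with celastrol and 10.77, 10.82, 10.81 and 10.85 with vehicle at 6 h, and 10.88, 10.81, 10.81 and 10.78 and 10.88, 10.88, 10.89 and 10.81 at 1 day. Gabra5 measured 11.98, 11.96 and 12.02 and 12.02, 11.95, 11.97 and 12.05 at 6 h, and 12.05, 11.96, 12.01 and 11.91 and 11.96, 11.96, 11.97 and 11.98 at 1 day. The groups overlapped in all of these, with differences from -0.05 to 0.01.

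At 6 h, 16 subunits were higher (all genes 52.8%) and 21 lower, with a median of -0.0204 against 0.00723 over all genes. Among genes above background 44.5% were higher, with a median of -0.0135, against 12 of 33 subunits (36.4%). Without replicate 3 of vehicle, 9 of the 37 were higher and 28 lower. Glra2, which encodes an alpha subunit of the glycine receptor, had the smallest p. It measured 10.62, 10.60 and 10.61 with celastrol and 10.84, 10.72, 10.87 and 10.72 with vehicle, a difference of -0.18 ± 0.0693 SE (limma, adjusted p = 0.249), the only subunit whose celastrol arrays at 6 h lay wholly under the vehicle arrays (all genes 4.29%), while 0 subunits lay wholly above (5.97%). At 1 day it measured 10.66, 10.63, 10.76 and 10.44 against 10.67, 10.66, 10.77 and 10.76 and at 4 days 10.71, 10.66, 10.53 and 10.58 against 10.46, 10.62, 10.68 and 10.73, with overlap. Glrb encodes the beta subunit that ties glycine receptors to the synaptic scaffold. It measured 12.01, 12.12 and 12.07 with celastrol and 12.10, 12.09, 12.17 and 12.04 with vehicle at 6 h, 12.07, 12.04, 12.08 and 11.99 and 12.11, 12.18, 12.12 and 12.16 at 1 day, and 11.98, 12.06, 12.03 and 11.95 and 12.002, 11.94, 12.002 and 12.03 at 4 days. At 1 day alone its groups did not overlap, with a difference of -0.09 ± 0.0414 SE (limma, adjusted p = 0.356). Glra1 and Glra3 differed by between -0.17 and 0.07 over the times, and Glra4 by 0.02 to 0.05.

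In contrast to the drug comparison, a few subunits passed the test between times within the vehicle group. The F test over the 3 vehicle times passed for 3 of 37 subunits, against 8.83% of all genes: Gabrg1 (limma, adjusted p = 0.00713), Gabrb2 (adjusted p = 0.00921) and Gria2 (adjusted p = 0.0395). From 1 day to 4 days, 5 subunits fell and 0 rose, against 11.8% of all genes called, of which 1600 rose and 603 fell. The share of subunits called, 5 of 37, was thus near the share of all genes. Those that fell were Gabrb2, Gabrg1, Gabra3, Glrb and Gria2, and in each the vehicle arrays of 4 days lay wholly under those of 1 day, as they did in 9 subunits in all (all genes 7.63%; wholly above in 0, against 13.2%). At an unadjusted p under 0.05 there were 11 (29.1%), of which 10 were lower (8.65%) and 1 higher (20.5%), and 16 of 37 had a higher value at 4 days (60.7%; above background 12 of 33, against 53.8% of genes). The 4 further subunits without overlap, Gabra5, Glra1, Gria3 and Gria4, did not pass. From 6 h to 4 days Gabrg1 and Gabrb2 fell and Grik5 rose (all genes 3.91%), and from 6 h to 1 day 0 passed (all genes 0%), with 3 at an unadjusted p under 0.05 (10.7%).

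The promoters of the 5 subunits that fell together are shown to set their sequences side by side. Each is the 250 bases before the annotated start of transcription in RefSeq (build GRCm38.p6), written 5′ to 3′ in the direction of the gene; for Gabrb2 and Gabra3, with 3 and 2 starts, the first is shown. Capitals mark matches, on either strand, to 5 short motifs: GGGCGG (GC box), TATAAA (called the TATA box), CACGTG (E-box), TGACGTCA (cyclic AMP response element) and CAGCACC (part of the RE1 element).
Gabrb2, chr11:42420190-42420439, plus strand: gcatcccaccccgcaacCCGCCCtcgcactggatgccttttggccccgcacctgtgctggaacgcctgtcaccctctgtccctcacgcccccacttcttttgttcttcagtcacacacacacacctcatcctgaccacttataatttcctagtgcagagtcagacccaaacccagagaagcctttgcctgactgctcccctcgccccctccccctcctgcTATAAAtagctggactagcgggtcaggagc
Gabrg1, chr5:70842618-70842867, minus strand: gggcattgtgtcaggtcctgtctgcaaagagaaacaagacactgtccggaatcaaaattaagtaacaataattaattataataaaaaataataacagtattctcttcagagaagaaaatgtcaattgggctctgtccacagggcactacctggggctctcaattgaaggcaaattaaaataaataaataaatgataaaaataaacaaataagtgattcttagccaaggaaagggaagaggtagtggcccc
Gabra3, chrX:72656920-72657169, minus strand: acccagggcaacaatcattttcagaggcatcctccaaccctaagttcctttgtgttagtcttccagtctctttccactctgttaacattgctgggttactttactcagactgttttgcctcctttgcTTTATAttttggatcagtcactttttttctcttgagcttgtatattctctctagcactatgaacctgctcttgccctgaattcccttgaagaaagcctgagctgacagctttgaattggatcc
Glrb, chr3:80913661-80913910, minus strand: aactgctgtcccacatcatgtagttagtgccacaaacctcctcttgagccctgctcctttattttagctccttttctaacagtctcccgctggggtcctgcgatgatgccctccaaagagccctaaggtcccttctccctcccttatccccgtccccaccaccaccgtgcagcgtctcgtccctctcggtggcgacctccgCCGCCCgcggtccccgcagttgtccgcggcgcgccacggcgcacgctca
Gria2, chr3:80802836-80803085, minus strand: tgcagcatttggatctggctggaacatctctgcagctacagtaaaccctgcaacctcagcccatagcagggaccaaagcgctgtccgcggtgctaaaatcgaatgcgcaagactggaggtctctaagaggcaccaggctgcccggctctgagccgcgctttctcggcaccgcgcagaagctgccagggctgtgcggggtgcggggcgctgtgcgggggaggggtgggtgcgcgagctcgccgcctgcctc

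The 5 windows shared no motif. Gabrb2 held GGGCGG on the opposite strand only and TATAAA on its own strand. Gabra3 held TATAAA and Glrb GGGCGG, both on the opposite strand only, and Gabrg1 and Gria2 held none of the 5. These are matches of letters at any position in the window, and their use as promoter elements was not tested. The windows shown also differed in base composition, with a GC content of 35.6% in Gabrg1, 42.4% in Gabra3, 58.8% in Gabrb2, 62.4% in Glrb and 64.8% in Gria2. At the other starts of Gabrb2, not shown, GC content was 54% and 36.8%, and none of the 5 motifs was found. At the other start of Gabra3 it was 39.2%. Windows were listed for 28 of the 37 subunits, 32 in all. Of these, 14 (43.8%) held GGGCGG on either strand, against 32.7% of 32851 windows of that length over the genome. For TATAAA, on either strand and at any position, it was 5 (15.6%) against 12.4%. Neither the E-box (6.02% of all windows) nor the cyclic AMP response element (1.55%) was found in a subunit's window, which says only that these letters are not in these bases. Gria2 and Glrb are neighbours on chromosome 3, Gabrg1 lies on chromosome 5 in a block with Gabra2, Gabra4 and Gabrb1, and Gabrb2 lies beside Gabra6 on chromosome 11. In the block of chromosome 5, only Gabrg1 passed from 1 to 4 days in vehicle mice; the differences of Gabra2, Gabra4 and Gabrb1 were -0.12, -0.18 and 0.0023.

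Gabrb2 measured 11.97, 11.85, 11.96 and 12.09 at 6 h, 11.97, 11.98, 11.94 and 12.04 at 1 day and 11.72, 11.71, 11.73 and 11.83 at 4 days in vehicle mice, all arrays of the last time lying under all of the others. The fall from 1 to 4 days was -0.23 ± 0.049 SE (limma, adjusted p = 0.00585) and from 6 h -0.22 ± 0.049 SE (adjusted p = 0.0185). Its 3 probe sets gave -0.15, -0.23 and -0.30 from 1 to 4 days, each past the threshold in a fit over all probe sets (adjusted p = 0.0252, 0.00568 and 0.00314). In celastrol mice the means were 11.88 ± 0.0453 (SD, n = 3), 11.86 ± 0.00829 and 11.70 ± 0.0809 (SD, n = 4 each), and the arrays of 4 days again lay under those of both earlier times. That change from 1 to 4 days was -0.15 ± 0.049 SE and did not pass (limma, adjusted p = 0.141).

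Gabrg1, which encodes the gamma-1 subunit, had a lower mean at each later time in vehicle mice. It measured 11.67, 11.49, 11.71 and 11.57 at 6 h, 11.51, 11.47, 11.54 and 11.52 at 1 day and 11.39, 11.23, 11.27 and 11.26 at 4 days, the last group lying under both others. The fall was -0.32 ± 0.0577 SE from 6 h to 4 days (limma, adjusted p = 0.00639) and -0.22 ± 0.0577 SE from 1 to 4 days (adjusted p = 0.0179). With celastrol it measured 11.55, 11.51 and 11.52, 11.45, 11.43, 11.57 and 11.32 and 11.28, 11.37, 11.35 and 11.17, and the change from 6 h to 4 days, -0.24 ± 0.0623 SE, did not pass (adjusted p = 0.113). The arrays of 4 days lay under those of 6 h there too, but overlapped with those of 1 day. Between celastrol and vehicle it differed by -0.08 at 6 h and -0.07 at 1 day, and by 0.0032 at 4 days.

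Gabra3, the alpha-3 subunit, measured 12.82, 12.83, 12.89 and 12.88 at 1 day and 12.73, 12.62, 12.76 and 12.67 at 4 days in vehicle mice, after 12.90, 12.68, 12.86 and 12.85 at 6 h. The fall from 1 to 4 days was -0.16 ± 0.0523 SE (limma, adjusted p = 0.0471), a call that was lost in 16 of 23 fits that left out 1 array (highest adjusted p = 0.131). Its values with celastrol were 12.73, 12.75 and 12.85, 12.85, 12.74, 12.82 and 12.74 and 12.61, 12.71, 12.71 and 12.54, a change of -0.15 from 1 to 4 days that did not pass (adjusted p = 0.186), although those groups did not overlap. Glrb fell from 1 to 4 days in vehicle mice (-0.15 ± 0.0414 SE, limma, adjusted p = 0.0239) and changed by -0.04 with celastrol (adjusted p = 0.675). Gria2 went from 12.12 ± 0.0367 to 11.96 ± 0.0479 (SD, n = 4 each), a fall of -0.16 ± 0.0398 SE (limma, adjusted p = 0.0155), against -0.08 with celastrol (adjusted p = 0.332). All 4 AMPA subunits had lower values at 4 days than at 1 day in vehicle mice, with a median of -0.118, whereas 4 of 6 NMDA and 3 of 5 kainate subunits had higher ones. Whether vehicle and celastrol mice differed in their course was covered by the test of a drug effect that differs between times, which no subunit passed.

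Grik5 was the only subunit that rose, by 0.22 ± 0.0604 SE from 6 h to 4 days in vehicle mice (limma, adjusted p = 0.0451). The call was lost in 17 of 23 fits that left out 1 array, with median centring (limma, adjusted p = 0.0523) and with array weights (adjusted p = 0.0919). Without the low replicate 3 at 6 h the difference was 0.13 (limma, adjusted p = 0.105). In celastrol mice, where no such array stood apart, it was 0.15 ± 0.0652 SE and did not pass (adjusted p = 0.293), with all arrays of 4 days above those of 6 h and of 1 day. The same vehicle array bears on the comparison of 1 day with 6 h, in which all 16 glutamate subunits had higher values at 1 day (all genes 45.9%, genes above background 49.6%) with a median of 0.0615, and 12 of 16, with a median of 0.0147, without it. Gabrd had the largest difference between times in celastrol mice, -0.34 ± 0.109 SE from 6 h to 1 day, without overlap, and did not pass (limma, adjusted p = 0.263). In celastrol mice 0 of 37 subunits passed the F test over time (all genes 0.246%), with 6 at an unadjusted p under 0.05 (16.4%), and 0 passed from 6 h to 1 day (0.0321%), 1 to 4 days (0.353%) or 6 h to 4 days (0.0749%).

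**Figure D2:**
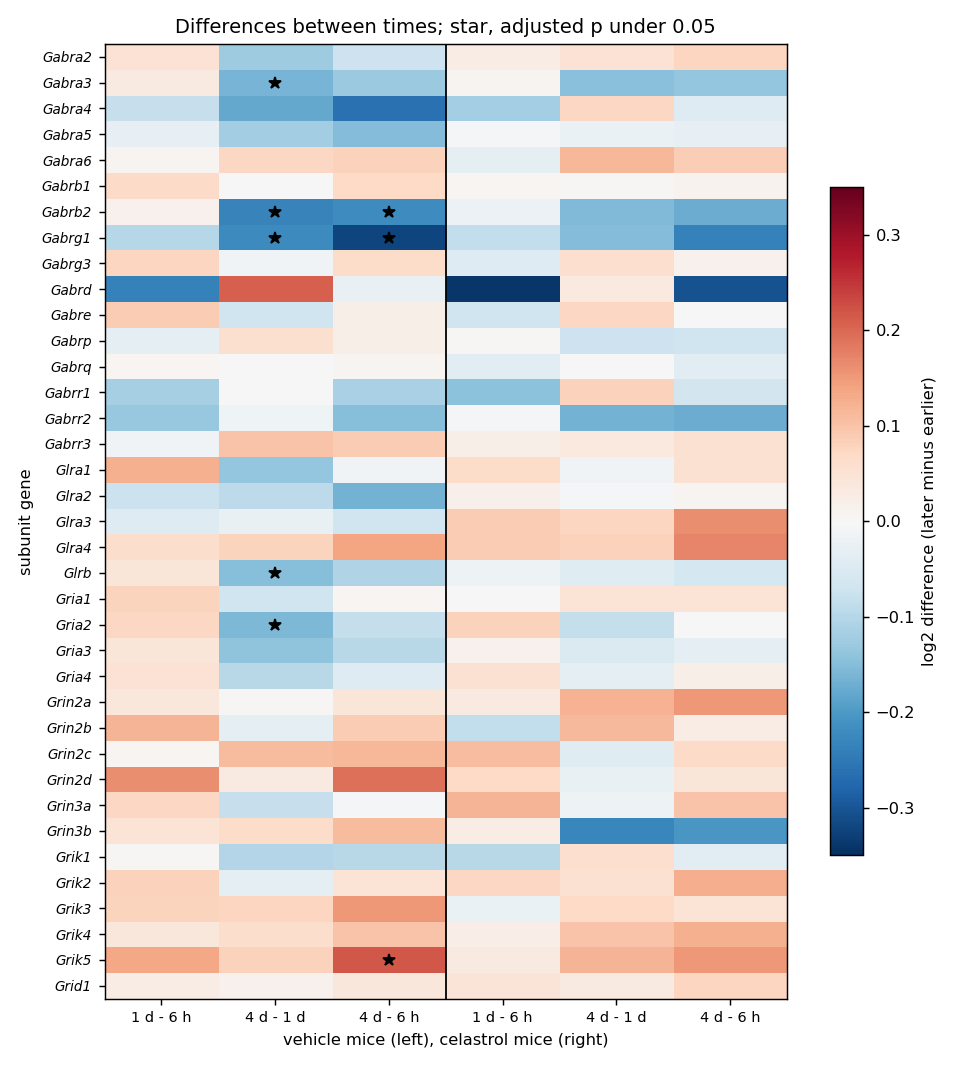
Differences between times (log2, colour, later minus earlier) for the 37 subunits in vehicle mice (left 3 columns) and celastrol mice (right 3 columns), with a star where the adjusted p of limma was under 0.05. The stars of the 5 subunits that fell from 1 day to 4 days stand in the vehicle columns, with 0 in the celastrol columns.

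Other measures moved together with the vehicle times, and some also differed between celastrol and vehicle. From 1 to 4 days, 958 of 1219 sensory receptor genes had higher values (all genes 60.7%), with a median of 0.111. The SD of log2 values over the genes of an array went from 1.948 to 1.895. It was 1.93 at 6 h with vehicle, and 1.889, 1.915 and 1.912 at the 3 times with celastrol. With this SD as a covariate 0 subunits passed in any vehicle comparison, and of all genes 2 (F test), 0 (1 to 4 days) and 13 (6 h to 4 days) passed, against 1651, 2203 and 732 without it. The differences of Gabrb2, Gria2, Gabrg1, Glrb and Gabra3 from 1 to 4 days were then -0.15, -0.14, -0.13, -0.08 and -0.05. After a further quantile normalization Gabrb2 alone passed from 1 to 4 days (-0.19, limma, adjusted p = 0.0225), against 4.38% of all genes. Without replicate 2 of vehicle at 4 days, which was the lowest of its group for 19 subunits, 1 subunit passed, against 7.05% of all genes. Pituitary markers were higher at 4 days than at 1 day in 9 of 9, with a median of 0.342 (all genes 60.7% higher). Oligodendrocyte markers were lower in 11 of 11 (-0.0502), against 46.2% of genes above background. Of 12 neuron markers 2, Nefl and Elavl4, fell (all genes called 11.8%). Of 9 choroid plexus markers 6 were higher, near the share of all genes, and 1, Kcnj13, rose (1.41), near the share of all genes called. With the mean of the pituitary markers as a covariate 3 of the 5 subunits passed (Gabrb2, Gria2 and Gabrg1), as did 6.79% of all genes in place of 11.8%. Higher values with celastrol were found in 902 of 1219 sensory receptor genes at 6 h, 821 at 1 day and 476 at 4 days. Of all 18704 genes, 9871, 10120 and 9289 were higher at these times. With the array SD as a covariate, celastrol differences at 6 h were 0.01 for Grin3b, -0.08 for Glra2 and 0.13 for Grik5. At 1 day they were -0.15 for Grik1, -0.07 for Gabrb2 and -0.13 for Gabra4. At 4 days they were 0.12, 0.09 and -0.17 for Gabra2, Gabra5 and Gabrd. All were smaller in size than without it, and its part was not tested.

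**Figure D3:**
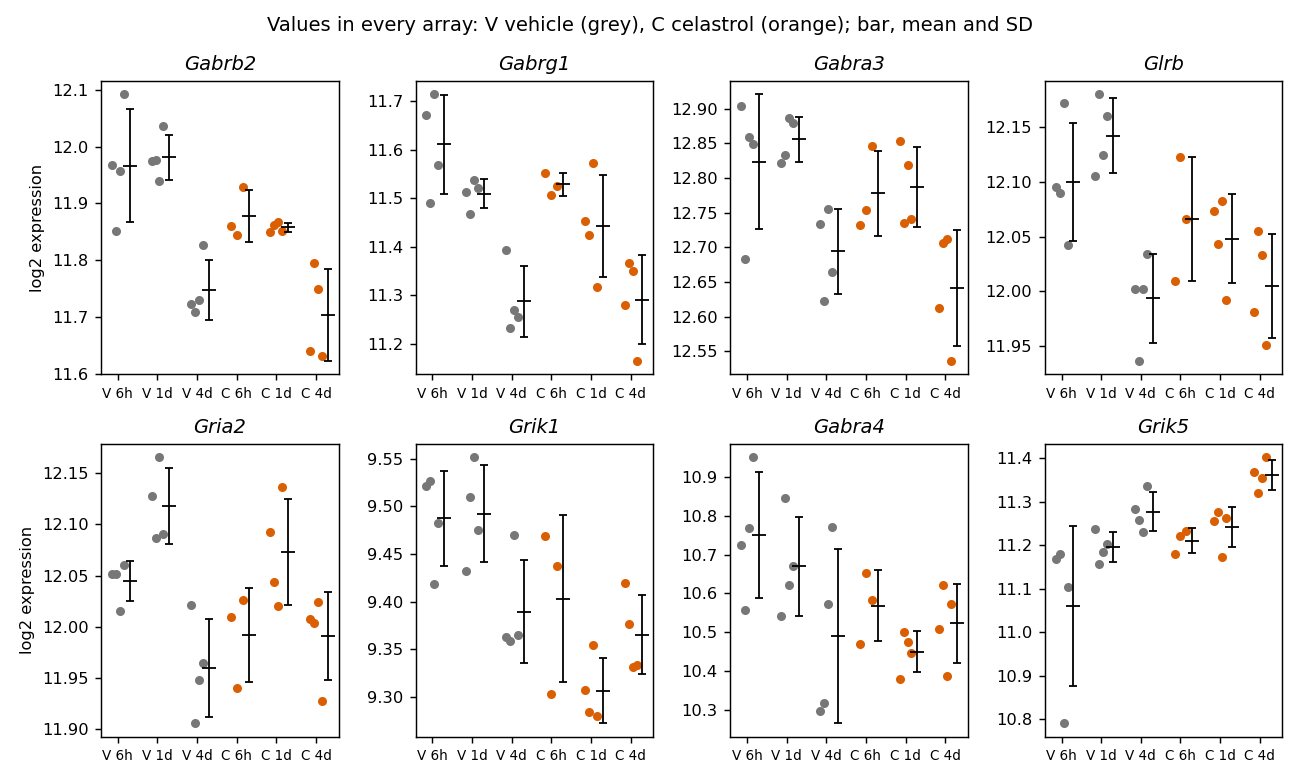
Log2 expression in every array (points) of 8 subunits in vehicle (V, grey) and celastrol (C, orange) mice at 6 h, 1 day and 4 days, with the mean and SD of each group as bars (n = 4, and 3 for celastrol at 6 h); the vertical axes differ between panels and do not start at 0. Gabrb2 and Gabrg1 have their lowest means at 4 days in both treatments, and every celastrol array of Grik1 at 1 day lies under every vehicle array of that time.

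Apart from time and drug, 1 subunit followed the level of thalamus markers in an array. Gabra4, which is known to be abundant in thalamic relay neurons, was higher by 0.81 ± 0.122 SE for each unit of the mean log2 value of 14 thalamus markers, taken as deviations from group means over all 23 arrays (limma, adjusted p = 0.0044). It was 1 of 37 subunits, against 0.0696% of 18690 genes. The arrays with the highest marker means, 9.99 (replicate 4 of vehicle at 4 days), 9.97 (replicate 4 at 6 h) and 9.92 (replicate 2 at 1 day), also had the highest Gabra4 of their groups, at 10.77, 10.95 and 10.85. Without replicate 4 of vehicle at 4 days the slope was 0.78 and no longer passed (limma, adjusted p = 0.141). Gabrd, the partner of Gabra4 in thalamic receptors, had a slope of 0.67 ± 0.187 SE that did not pass (adjusted p = 0.345), and that of Gabra2 was 0.01. With the marker mean as a covariate, the difference of Gabra4 at 1 day was -0.11 in place of -0.22, and that of Gabrd at 4 days -0.07 in place of -0.18, while that of Grik1 stayed at -0.19. By group, the marker means ran from 9.59 to 9.97 at 6 h, 9.58 to 9.92 at 1 day and 9.43 to 9.99 at 4 days with vehicle, and from 9.57 to 9.73, 9.44 to 9.63 and 9.41 to 9.58 with celastrol; 13 of the 14 markers lay above the background level. Slopes on striatum, pituitary, choroid plexus and oligodendrocyte markers passed for 0 of 37 subunits (all genes 0.016%, 0.016%, 0% and 0.0107%).

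**Figure D4:**
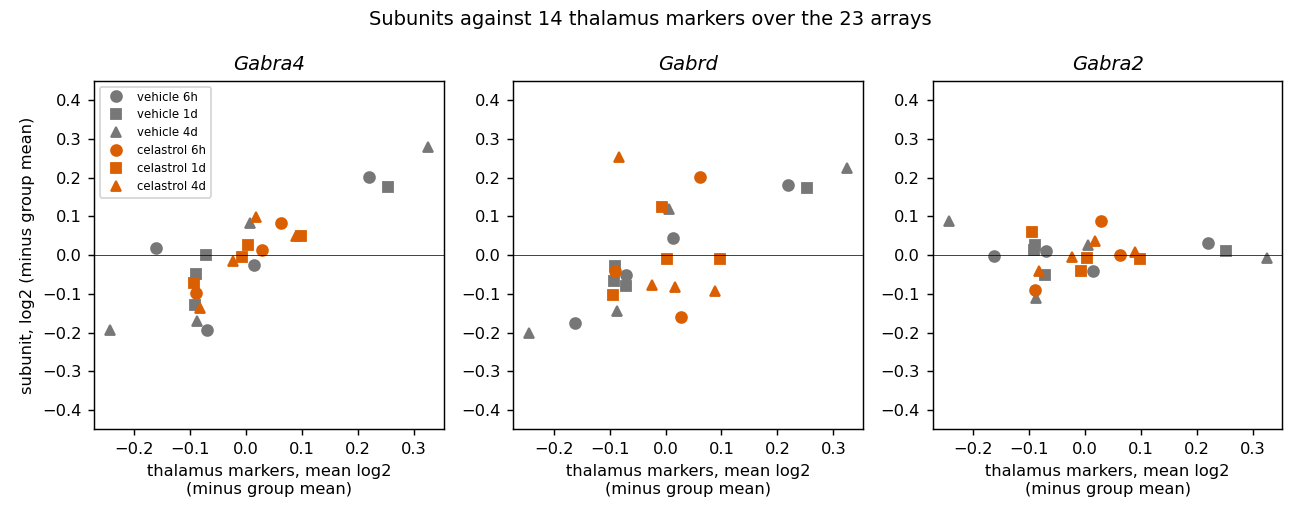
Gabra4, Gabrd and Gabra2 (log2 minus the group mean, vertical axis) against the mean of 14 thalamus markers (log2 minus the group mean, horizontal axis) in the 23 arrays, with symbols for time and colours for treatment. Gabra4 climbs with the markers (slope 0.81), with 3 vehicle arrays at the right end, and Gabra2 stays level (0.01).

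The genes that make, move and anchor the transmitters and receptors were taken from 3 lists. In none of the celastrol comparisons did a gene pass among 22 measured for transmitter synthesis and transport, 39 for receptor anchoring and auxiliary proteins, and 8 metabotropic GABA and glutamate receptors. At 1 day 17 of the 22, 27 of the 39 and 7 of the 8 had lower values (all genes 45.9%, genes above background 53.3%), with medians of -0.0285, -0.0221 and -0.0414. The smallest p at that time belonged in the first list to Slc1a1, a neuronal glutamate transporter (-0.10 ± 0.0419 SE, limma, adjusted p = 0.332), and Slc6a5, the glycine transporter GlyT2 (0.15, adjusted p = 0.443), whose mean of 6.88 was not above background. In the second list it was Neto2, an auxiliary subunit of kainate receptors (-0.18 ± 0.0561 SE, adjusted p = 0.202), and Nptx2, a secreted protein that clusters AMPA receptors (0.12, adjusted p = 0.351), and in the third Grm3 (-0.12, adjusted p = 0.32) and Grm8 (-0.12, adjusted p = 0.394), receptors that damp transmitter release.

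At 6 h the metabotropic receptor Grm8 had the smallest p of the 3 lists (-0.25 ± 0.0608 SE, limma, adjusted p = 0.156), with Grm7 next in its list (-0.02). Cbln1, a secreted partner of delta glutamate receptors (-0.13, adjusted p = 0.254), and the scaffold Homer1 (-0.14) led the anchoring list, and the vesicular glutamate transporters Slc17a8 (0.18) and Slc17a6 (-0.09) the transmitter list. At 4 days Shmt2, a mitochondrial enzyme that makes glycine (0.22 ± 0.0658 SE, limma, adjusted p = 0.37), and Slc6a13, a GABA transporter found in the coverings of the brain (-0.78 ± 0.238 SE, adjusted p = 0.379), had the smallest p of transmitter genes. For anchoring these were Nptx2 (0.14) and Neto1 (0.09), and for metabotropic receptors Grm7 (0.06) and Grm5 (0.06). In vehicle mice 5 of the 69 genes passed, 4 from 1 to 4 days (all genes 11.8%) and 1 from 6 h to 4 days (3.91%). From 1 to 4 days Slc6a13 rose (0.94 ± 0.238 SE, limma, adjusted p = 0.0155), while Slc1a1 (-0.19 ± 0.0419 SE, adjusted p = 0.00782), the AMPA receptor auxiliary subunit Cacng3 (-0.24 ± 0.057 SE, adjusted p = 0.0122) and Grm8 (-0.18, adjusted p = 0.0363) fell. From 6 h to 4 days Nlgn2, an adhesion protein of inhibitory synapses, rose (0.24 ± 0.0648 SE, limma, adjusted p = 0.0394). With the array SD as a covariate 0 of these 5 passed, and the difference of Grm8 was 0.01. These vehicle groups are also the controls of the celastrol comparisons at 1 and 4 days, so the vehicle change of Slc6a13 and its celastrol difference at 4 days share the same arrays.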

How the data were processed

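RNA from 23 hypothalamus samples was measured on Affymetrix mouse arrays that probe whole transcripts. The authors deposited log2 values, with RMA named in the submitters' processing notes; no source used here states its version, which arrays were normalised as a set, or a filter. Groups came from the labels. Of 23492 probe sets, 20228 named 1 gene in the array's annotation table (1399 several, 1865 none), 20182 of them under a current symbol. The probe set with the highest mean was taken for 809 genes with more than 1, which gave 18704 genes, tested with no filter on level.

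Tests used limma 3.58.1 (R 4.3.3): 6 group means over all 23 arrays (17 residual and 5.42 prior degrees of freedom), eBayes, and a threshold of 0.05 on p-values adjusted by Benjamini and Hochberg's method across the 18704 genes. Slopes on marker means used the same model. The p-values measure the spread between these samples. The procedure was tested on simulated data with independent noise in each gene and array, which does not cover shifts across a whole array.

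The members, gene lists and tests were chosen with earlier results of these data known. Values in every array are given for subunits past 0.05 in a celastrol test, an F test or a comparison between times. They are also given for the 3 of smallest p at each time, and a set of 10 subunits, of which 6 were measured. Other genes of the pathway are those past 0.05 and the 2 of smallest p per list and time. Names given for counts of 9 or fewer subunits outside this rule were chosen after their values were seen, as were the covariates of array SD and pituitary markers and the counts without single arrays. Promoter sequences are RefSeq's.

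Alternatives were a variance trend fitted robustly, genes above the lowest tercile, quantile normalization, median centring, array weights, the replicate number as a block, marker scores as covariates, another probe set per gene, only the groups compared, and leaving out each array.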

Additional observations from a re-analysis of the deposited data

Results flagged for a closer look

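In 5 of 80 groups of 4 arrays tested for the subunits named with all their values, 1 array lay far from the other 3; chance gives about 1 in 20. Replicate 3 of vehicle at 6 h was low in Gria1, at 12.29 against 12.55 to 12.58, and in Grin2b, at 10.77 against 11.16 to 11.22. Replicate 1 of the same group was low in Grin3b, at 6.952 against 7.197 to 7.236. Replicate 3 of vehicle at 4 days was high in Grik1, at 9.47 against 9.359 to 9.365. Replicate 3 of celastrol at 4 days was high in Gabrd, at 7.735 against 7.39 to 7.404.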

How the results depend on the processing

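The count of subunits that passed for celastrol was 0 at 6 h, 4 days, over the mean of the times and between times in every fit run, and 0 at 1 day except with array weights, where 1 (Grik1) passed among 406 genes. The share of all genes called by the same fit stands in brackets. The vehicle F test (3 subunits, 8.83%) gave 7 when a robust trend of variance was fitted (9.63%), 6 when the lowest tercile of genes was dropped (1214 genes called), 5 with median centring (7.64%), array weights (13.3%) or the thalamus covariate (9.4%), 0 with the array SD as a covariate (0.0107%), and 2 to 5 when 1 array was left out. From 1 to 4 days in vehicle mice (5 subunits, 11.8%) the counts were 1 after quantile normalization (4.38%), 8 with median centring (10.8%) or array weights (19.4%), 3 with the pituitary covariate (6.79%), 0 with the array SD (0%), and 1 to 6 without 1 array, the 1 being without replicate 2 of vehicle at 4 days (7.05%). From 6 h to 4 days (3 subunits, 3.91%) they were 0 with the array SD (0.0695%) and 1 to 6 without 1 array: 6 without replicate 2 of vehicle at 6 h, and 1 without replicate 2 or 3 of vehicle at 4 days. The thalamus slope (1 subunit, Gabra4) gave 0 to 2 without 1 array, 0 being without replicate 4 of vehicle at 4 days and 2 without replicate 3 of celastrol at 4 days. The striatum slope (0 subunits) gave 1 after quantile normalization (186 genes called) and 2 with the marker median (318 genes). Causes were not tested. The 8 called vehicle differences, the slope of Gabra4 and the celastrol differences of smallest p kept their direction in every fit run. Other values did not: without replicate 3 of vehicle at 6 h, Grin2b and Gria1 at 6 h turned to -0.07 and -0.06 and the vehicle median from 6 h to 4 days turned from 0.00724 to -0.0621, and without replicate 2 of vehicle at 4 days the 4-day count of higher subunits went from 23 to 12. Single-subunit results were also counted once per fit, outside the fits that left out an array. In 164 cases the side of the threshold was kept, among them many celastrol differences that passed in neither fit. The call was lost in 18 cases and gained in 1. Each of the 8 called vehicle differences lost its call with the array SD, and the slope of Gabra4 lost it with the replicate block. In the 23 fits that left out 1 array, the fall of Gabrb2 from 1 to 4 days always passed (limma, adjusted p 0.0041 to 0.0239).

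Replicate numbers did not pair the arrays: over 11 pairs of celastrol and vehicle arrays with the same number and time, deviations correlated by -0.0826 to 0.188, and 2 pairs exceeded 0.1. With the replicate block the thalamus slope of Gabra4 was 0.81 (limma, adjusted p = 0.128), so 0 subunits passed; the counts for drug and time stayed within 1.5 times.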
